A study of Mus musculus with 4 samples.

Results

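Tendon and ligament cells are the fibroblasts that build the cords between muscle and bone and between bones. In the limb bud their progenitors express Scx, a bHLH transcription factor, and as they mature they switch on Tnmd, a membrane glycoprotein of tendon, and lay down collagen I fibrils trimmed by small leucine-rich proteoglycans such as fibromodulin, decorin and keratocan. Mkx, a homeobox factor, is needed for the collagen content of tendon, and near the skeleton some progenitors express Scx together with Sox9, the regulator of cartilage.

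The cells described here were selected on their own transcripts. A cell was a member when its summed Scx, Tnmd and Mkx count reached 3 unique molecular identifiers (UMIs, each standing for 1 captured mRNA molecule), with no Matn1 UMI, at most 1 Gdf5 UMI and no Myog or Myod1 UMI, which set aside chondrocytes, interzone cells of the future joint and myogenic cells. The rule took 1656 of 44320 kept cells, those in which between 200 and 6000 genes were detected and mitochondrial transcripts made up no more than 10% of UMIs. Levels of these 7 genes in the members are therefore a description and support nothing.

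The study profiled the presumptive knee of mouse hindlimbs by droplet single-cell RNA-seq, in 4 libraries with 1 library per group. The controls are titled wild type, 1 of them collected at E13.5 and the other a day later. The paper describes the control embryos of its E14.5 mutant comparison as having no Cre. The mutants, both of the later day, were Prx1Cre;Glut1f/f;Glut3f/+ and the double knockout Prx1Cre;Glut1f/f;Glut3f/f (DCKO), by label both floxed for Glut1 (Slc2a1) and different in whether 1 or both Glut3 (Slc2a3) alleles are floxed. Prx1Cre acts in limb mesenchyme, the source of tendon, cartilage and connective tissue, and not in blood, endothelium or muscle fibres. Soft tissue was stripped from the cartilage by rolling on paper before digestion with collagenase D, so the members are what stayed attached, and how many embryos were pooled per library is not stated.

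Library depth was similar. Series of 4 values below always give the younger control, the older control, the mutant that keeps 1 Glut3 allele and then DCKO. In this order the libraries held 100344565, 84188147, 97110697 and 91574038 UMIs in 12769, 9707, 11690 and 11602 barcodes. Members had a median of 7739.5, 7477, 7379 and 6702 UMIs, against 6176.5, 7279, 6757 and 6379 in all kept cells. Pairs of libraries shared between 25 and 40 barcodes, and no pair shared a barcode between members. Intervals below are 95% intervals and cover counting error only, since each group had 1 library and nothing measures the spread between animals.

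The libraries also differed in the sex of their embryos. Xist, the RNA of the inactive X chromosome, had a UMI in 73.0% of members at E13.5, in 0 of 397 members of the E14.5 control, and in 97.6% and 97.3% of members in the mutants. Y-linked genes had a UMI in 17.1%, 67.3%, 0% and 0%. The E14.5 control was thus male, the mutant libraries female and the E13.5 control mixed. Sex cannot be told apart from genotype in any comparison of a mutant with the E14.5 control. The controls also differ in sex make-up, so sex cannot be told apart from age between them.

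Members made up 5.32% of kept cells at E13.5 (662 of 12446, Clopper-Pearson interval 4.93% to 5.73%) and 4.27% in the E14.5 control (397 of 9305, 3.86% to 4.70%). They made up 3.32% in Prx1Cre;Glut1f/f;Glut3f/+ (374 of 11264, 2.997% to 3.67%) and 1.97% in DCKO (223 of 11305, 1.72% to 2.25%). The share was highest at E13.5 and lowest in DCKO, and the 4 intervals did not overlap. The DCKO share was 0.462 times that of the E14.5 control (0.391 to 0.546), and 0.594 times that of Prx1Cre;Glut1f/f;Glut3f/+ (0.501 to 0.703).

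Depth entered the choice of cells, so each cell was also thinned to 3000 UMIs before the rule was applied. Shares were then 1.94%, 2.03%, 1.82% and 1.16%. The E14.5 control no longer lay below E13.5 (ratio 1.04, 0.848 to 1.28), the Prx1Cre;Glut1f/f;Glut3f/+ value was not separable from the control at this depth (0.900, 0.727 to 1.11), and DCKO stayed lowest (0.574, 0.449 to 0.732). With a sum of 5 or more UMIs required, the same ratios were 0.878, 0.976 and 0.627.

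**Figure D1:**
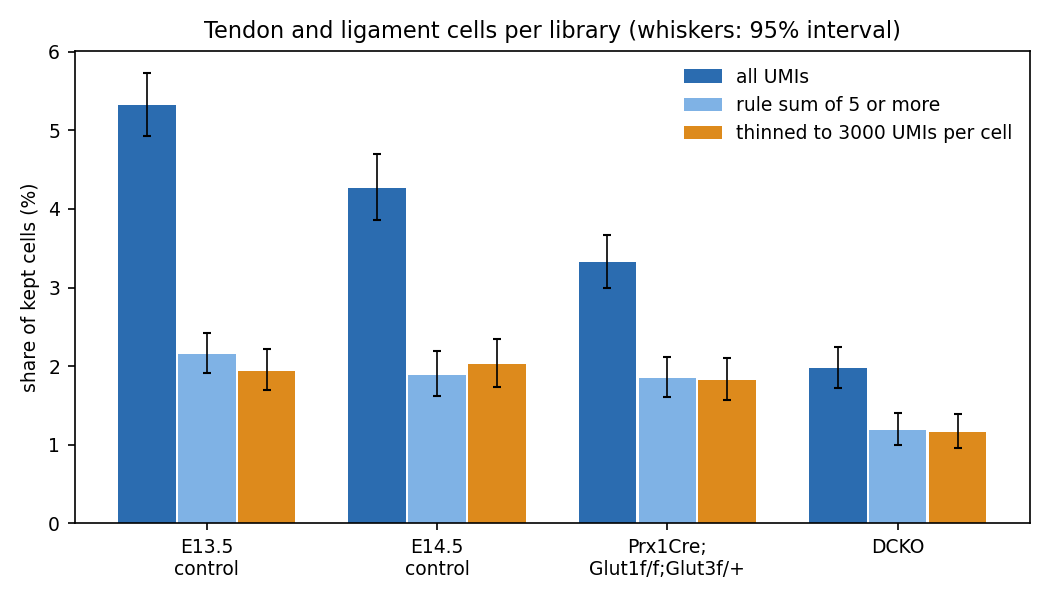
Share of kept cells that met the rule in each of the 4 libraries (vertical axis, percent), with all UMIs, with a rule sum of 5 or more, and after thinning to 3000 UMIs per cell, where only cells with at least 3000 UMIs count. Whiskers are 95% Clopper-Pearson intervals, and DCKO is the lowest library under each setting, at 1.97%, 1.19% and 1.16%.

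Other cells shifted between the same libraries, and a share depends on all of them. Matn1-positive chondrocytes were 13.4%, 46.1%, 38.5% and 46.7% of kept cells. Gdf5-positive interzone cells were 9.93%, 4.83%, 3.75% and 1.11%, and myogenic cells were 5.86%, 2.54%, 3.16% and 0.734%. Myogenic cells, like members, had their lowest share in DCKO, and the part of dissection in this was not tested. Dcn-positive fibroblasts, at 4.38%, 2.39%, 3.63% and 2.20%, followed the members in part. Their DCKO share was 0.923 times that of the E14.5 control (0.767 to 1.11), unlike members, and 0.607 times that of Prx1Cre;Glut1f/f;Glut3f/+ (0.516 to 0.712), close to members.

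Scx carried most of the rule. Its level in members was 503, 541, 641 and 681 UMIs per 1e6 UMIs (counts per 1e6, CPM), and it supplied 91.2%, 73.4%, 67.0% and 74.0% of the UMIs that met the rule. Members with Scx alone among the 3 genes were 72.7%, 41.1%, 35.0% and 43.0%. The E13.5 members were therefore mostly Scx-positive cells without a detected later marker, and the name tendon and ligament cells rests there on Scx.

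Tnmd, the later marker, read 18.0, 115, 251 and 187 CPM in members. A Tnmd UMI was seen in 8.46%, 24.7%, 46.5% and 36.8% of them, or 4.31%, 16.5%, 34.1% and 26.4% at 3000 UMIs per cell. In macrophages, which should lack it, it was in 0, 0, 0 and 1 cell of 27, 55, 69 and 46, at median depths of 1993, 6832, 9418 and 5468.5 UMIs. Since Tnmd helped choose the members, these shares describe the choice and do not measure expression above background. Tnmd was low at E13.5 and highest in the mutants, and it lies on chromosome X (133850980 to 133865577, GRCm38), a chromosome for which the E14.5 control and the mutants differ in sex. Mkx was 30.8, 81.2, 64.4 and 53.1 CPM, highest in the E14.5 control.

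The markers outside the rule differed among themselves. Fmod, fibromodulin, which binds collagen and steers fibril growth, was in 11.8%, 46.6%, 37.7% and 32.7% of members and in none of the macrophages. Its level of 16.7, 125, 71.3 and 64.5 CPM exceeded that of Dcn-positive fibroblasts, at 5.44, 4.62, 7.63 and 6.01 CPM, in every library. In Gdf5-positive interzone cells Fmod was 17.4, 49.6, 38.3 and 40.4 CPM, above members at E13.5 and below them at E14.5. Kera, keratocan, was in 4.38%, 7.56%, 12.6% and 26.5% of members at 10.5, 21.6, 42.1 and 69.5 CPM. At E13.5 Kera was higher in Dcn-positive fibroblasts (32.4 CPM, 10.3% of cells) than in members, so at that age it did not mark them, while in the 3 libraries of E14.5 members were higher.

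Members just inside the rule, with a sum of 3, numbered 255, 143, 100 and 62, and cells with a sum of 2 that met its other conditions numbered 577, 227, 225 and 156. Fmod read 12.4, 103, 69.5 and 58.8 CPM just inside and 10.2, 103, 76.6 and 27.0 CPM just outside. Thbs4, a matricellular protein of tendon and muscle attachments, read 23.4, 42.4, 54.2 and 99.6 CPM inside and 20.2, 43.5, 42.7 and 41.6 CPM outside. Dcn read 126, 86.6, 219.6 and 118 CPM inside and 165, 93.9, 87.3 and 104 CPM outside, and Kera 3.34, 4.51, 8.34 and 15.8 CPM inside and 7.05, 1.26, 19.3 and 10.4 CPM outside. Fmod and Thbs4 were past 2-fold higher inside in DCKO alone, and Dcn was so in Prx1Cre;Glut1f/f;Glut3f/+ alone. Kera was higher inside in the E14.5 control and DCKO and lower in the others. Its values rest on few UMIs, 7, 5, 6 and 7 inside and 31, 2, 29 and 10 outside.

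Markers of other cell types ranged from near 0 to levels above those of other kept cells. The 5 interzone markers were all detected, led by Sfrp2, and summed to 712, 1494, 769 and 616 CPM in members against 1058, 709, 636 and 376 CPM in other kept cells, so that members were the higher in the 3 libraries of E14.5. The 5 tendon markers summed to 579, 884, 1070.4 and 1055 CPM, less than interzone markers in both controls. The 5 fibroblast markers, all detected and led by Col3a1, summed to 1407, 1849.6, 2109 and 2225 CPM, above the tendon markers in each library, against 896, 1006, 972 and 819 CPM in other kept cells. Of 8 chondrocyte markers 7 were detected, with Matn1 at 0 by the rule, and they summed to 425, 614, 473 and 529 CPM in members against 2764, 9517, 8398 and 8939 CPM in other kept cells, with Col2a1 the most abundant. Skeletal muscle markers summed to 63.7, 25.3, 29.5 and 21.3 CPM, with Myog and Myod1 at 0 by the rule and Tnnt1 the most abundant. Macrophage markers were near 0 except in the E14.5 control, where they summed to 45.4 CPM and C1qb led at 13.6 CPM. Erythroid markers, led by Hbb-bs at 644 CPM, summed to 982 CPM in Prx1Cre;Glut1f/f;Glut3f/+ and to between 25.2 and 76.3 CPM in the other libraries. Mural markers, led by Acta2, summed to 54.1, 106, 411 and 32.3 CPM, and were highest in Prx1Cre;Glut1f/f;Glut3f/+.

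Across the transcriptome, members were nearest to fibroblasts or to interzone cells, and which of them was nearer depended on the library. Over 9473 genes at E13.5 the correlation of log levels with Dcn-positive fibroblasts was 0.978 and with Gdf5-positive interzone cells 0.951. In the E14.5 control it was 0.934 with fibroblasts and 0.951 with interzone cells, over 9581 genes. In Prx1Cre;Glut1f/f;Glut3f/+ it was 0.953 and 0.927, and in DCKO 0.945 and 0.924. The E14.5 control was thus the only library whose members were closer to interzone cells than to fibroblasts. The pools compared differed in size. Fibroblasts held 4045959, 1947975, 2881468 and 1498502 UMIs and interzone cells 9612684, 3406171, 2946571 and 890322 UMIs. The part of pool size in the correlations was not tested. These correlations run across genes of the same library, and genes are not independent replicates. Chondrocytes, from 0.863 to 0.899, and myogenic cells, from 0.809 to 0.854, were farther away in all 4 libraries.

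Set against all other kept cells of the same library, members held more of some tendon matrix genes and less cartilage matrix. Of 6340 genes tested, with at least 20 CPM, 267 (4.21%) were at least 2-fold higher in members and 188 (2.97%) at least 2-fold lower, as the mean of the 4 libraries. These cells were chosen by expression, so the counts describe the choice and are not tested. The median log2 ratio over the genes tested was 0.11.

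Among genes with at least 100 CPM in members or in other cells, Thbs4 led, with 30.3, 114, 195 and 277 CPM in members against 5.55, 6.15, 6.33 and 4.20 CPM in other kept cells, a mean log2 ratio of 4.41 (2.45 to 6.05 over the libraries). Meox1, a homeobox factor of somites and their derivatives, followed with 215, 177, 213 and 259 CPM in members against 44.8, 17.7, 27.5 and 14.2 CPM (3.18), and its relative Meox2 with 98.7, 132, 137 and 127 CPM (2.62). Meox1 was level across the 4 libraries in members, unlike Thbs4, which was lowest at E13.5 and highest in DCKO. Other leading genes were Aspn, an asporin proteoglycan (2.46), Fbln5, an elastic fibre protein (2.32), Ogn, osteoglycin (2.30), Htra1, a secreted protease (2.12), Fn1, fibronectin (1.99), and Dcn, decorin (1.91).

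The matrix gene groups were mixed. Of 20 genes for tendon matrix glycoproteins and elastic fibres, 10 were at least 2-fold higher and 2 lower, with a median log2 ratio of 0.98; Chodl (3.20) and Postn (1.85) were among the high ones and Comp was low, at 1.13, 6.24, 3.77 and 4.92 CPM in members against 40.5, 169, 182 and 206 CPM. Of 10 small leucine-rich proteoglycans, 5 were higher, led by Kera (4.44), and 3 lower, all of them cartilage-type members (Epyc, Chad and Prelp), with a median of 1.14. Of 14 collagens, 6 were higher, among them Col1a1 and Col12a1 (1.44), and 3 lower, namely Col11a1, Col11a2 and Col27a1, with a median of 0.86. Of 22 genes for collagen folding and crosslinking, 2 were higher, Lox and Creb3l1 (1.30), and 4 lower, Pcolce2 (-2.70), Loxl3 (-2.11), P4ha2 (-1.51) and P4ha1 (-1.07), with a median of -0.20.

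Signals were unevenly placed. Among 15 genes of the FGF pathway, Etv4 (2.52), Fgf18 (1.75), Spry1 (1.66) and Spry4 (1.27), the ligand and feedback targets found at sites of tendon induction, were at least 2-fold higher and the receptor genes Fgfr3, Fgfrl1 and Fgfr2 at least 2-fold lower (-3.70, -1.57 and -1.09). Among 15 Wnt pathway genes, Lgr5 (2.60), Wif1 (1.85), Dkk2 (1.52) and Wnt5b (1.03) were higher and Lef1 (-3.29), Sfrp1 (-1.44) and Wnt4 (-1.37) lower. Of 20 TGF-beta genes 3 were higher, Tgfb3 (1.23), Ldlrad4 and Ltbp4 (1.17), and 1 was lower, Ccn2 (-1.48). Epha3 (1.68), Sema3a (1.41), Cxcl14 (1.21) and Epha4 (1.16) were the 4 genes of 17 past 2-fold in the list for axon guidance and muscle attachment, and Itga4 (2.01) and Piezo2 (1.13), a mechanosensitive channel, those of 14 for integrins and mechanosensing.

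Most genes of glucose use were lower in members by less than 2-fold. All but 1 of 12 glycolysis genes had a mean log2 ratio under 0, with a median of -0.50 and 1 past 2-fold, and so had all but 2 of 15 hypoxia targets, with a median of -0.70, 6 past 2-fold and Slc16a3, the lactate exporter, at -1.55. Slc2a1, the Glut1 gene, stood at -1.25. Nuclear genes of oxidative phosphorylation, at a median of 0.08, were close to all genes tested. All 20 G2M genes lay above 0, with a median of 0.27 and none past 2-fold, and of 18 skeletal transcription factors 5 were lower, Runx3 (-2.20), Sox5, Sox6 (-1.63), Sox9 (-1.44) and Barx1 (-1.37).

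The low end was cartilage matrix. Snorc, a chondrocyte proteoglycan, read 2.75, 8.52, 3.46 and 2.73 CPM in members against 118, 580.4, 424 and 527 CPM (-6.44), and Hapln1, the link protein of aggrecan, 6.16, 23.3, 11.9 and 15.3 CPM against 215, 669, 555 and 593 CPM (-5.18). Acan stood at -4.48, and Lgals3 at -6.13. The rule set Matn1 to 0 to set aside chondrocytes, so these low values describe the choice of cells. The part of the Matn1 condition in them was not tested.

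Members were also set against 2 neighbouring cell groups. Over Dcn-positive fibroblasts the mean log2 ratio was 3.05 for Htra1, 2.40 for Mgp, an inhibitor of calcification, 1.89 for Col11a1, 1.87 for Foxp1 and 1.77 for Foxp2, and it was -2.70 for Akap12, -1.99 for Cxcl12 and -1.62 for Lum. Over Gdf5-positive interzone cells it was 4.97 for Dcn, 4.83 for Thbs4, 3.79 for Aspn and 3.37 for Meox1. It was -2.98 for Scrg1, -2.47 for Acan, -2.40 for Osr2, -2.39 for Barx1, -2.31 for Sulf1 and -2.23 for Sox6. The mural marker Acta2 had 68, 3, 0 and 0 UMIs in these interzone cells. Its mean of 5.95 (2.29 to 11.03 over the libraries) therefore depends on a count of 0.5 added to each group and is not exact.

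The first comparison between libraries follows the controls from E13.5 to E14.5, and asks how these cells change over a day of joint formation. Of 13 collagens 10 were at least 2-fold higher at E14.5, and so were Fmod, Bgn, Postn and Thbs4. These libraries differ in sex make-up as well, and Bgn lies on chromosome X. The part of sex in the changes was not tested. Hoxd11, Shox2 and Twist2, factors of the early limb, were among the genes at least 2-fold lower. Of 6575 genes tested, with at least 20 CPM and 20 UMIs in either library, 250 (3.8%) were at least 2-fold higher and 89 (1.35%) at least 2-fold lower, and the median log2 ratio over all of them was -0.04. After thinning to 3000 UMIs per cell 260 were higher and 261 lower. Thinning left 212, 171, 184 and 115 members, so 20 UMIs meant a higher CPM in a library with fewer members. Counts after thinning, here and below, could thus admit more genes through the larger group.

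Collagens made up the group with the highest median. Col1a1 rose from 457 to 1505 CPM (log2 ratio 1.72), Col12a1, which coats collagen fibrils, from 106 to 428 CPM (2.01), and Col14a1, a relative, from 5.51 to 64.7 CPM (3.55, 3.03 to 4.12). Of 13 collagens tested all 13 lay above 0 and 10 were at least 2-fold higher, with a median log2 ratio of 1.36. The same list had a median of 0.94 in Dcn-positive fibroblasts and 1.01 in all other kept cells, so collagens were higher with age across the tissue, and whether members differ from other cells in this was not tested.

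Proteoglycans and glycoproteins of tendon followed. Fmod went from 16.7 to 125 CPM (2.91, 2.60 to 3.23), while in Dcn-positive fibroblasts it was 5.44 and 4.62 CPM, in Gdf5-positive interzone cells 17.4 and 49.6 CPM, and in other kept cells the ratio was 1.97. Bgn, biglycan, went from 73.9 to 311 CPM (2.07), Aspn from 47.6 to 127 CPM (1.42) and Kera from 10.5 to 21.6 CPM (1.03), whereas Dcn, at 151 and 126 CPM, and Lum, at 93.5 and 80.6 CPM, were slightly lower. Of 7 such proteoglycans 5 were thus at least 2-fold higher, with a median of 1.16 against 0.47 in fibroblasts and 0.74 in other kept cells. Among 19 tendon matrix glycoproteins other than Tnmd, which the rule used, 10 were at least 2-fold higher and none lower, with a median of 1.10 against 0.66 in fibroblasts and 0.18 in other kept cells, led by Htra3 (2.11), Postn (2.04), Thbs2 (1.98) and Thbs4 (1.91).

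Enzymes that make collagen were higher, most of them by less than 2-fold. Of 20 genes for collagen folding and crosslinking, 20 lay above 0 and 4 were at least 2-fold higher: Plod2, a lysyl hydroxylase whose product gives stiff crosslinks, reached 256 CPM (2.10), and Plod1 (1.36), Loxl1 (1.31) and Lox (1.23) followed. The median was 0.86, against 0.67 in fibroblasts and 0.77 in other kept cells. Latent TGF-beta binding proteins were higher, Ltbp2 most (4.27), Ltbp3 (1.72) and Ltbp4 (1.57), and with Tgfbi they were the 4 genes of 20 in that list past 2-fold. Itga11, a collagen-binding integrin, stood at 2.30.

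Transcription factors divided. Of 19 tendon-associated factors 3 were at least 2-fold higher, Runx1 (1.29), Klf2 (1.19) and Egr1 (1.06), a factor that responds to load and to dissociation alike, with a median of 0.56. Of 19 skeletal factors, Barx1, a homeobox factor of joint and dental mesenchyme, rose from 57.0 to 165 CPM (1.54) and Sox6 from 43.6 to 99.6 CPM (1.19), and Runx3 (-3.62), Twist2 (-1.90), Runx2 (-1.57), Osr1 (-1.36) and Prrx2 (-1.26) were lower. Of 13 limb position factors 3 were at least 2-fold lower and 4 lay above 0, with a median of -0.37 against -0.85 in fibroblasts and -0.50 in other kept cells; among the 3 were Hoxd11, from 71.5 to 21.6 CPM (-1.73), and Shox2, from 201 to 70.1 CPM (-1.52).

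The largest single rises included genes with other roles. Ecrg4, a secreted peptide precursor, led (4.84), Nupr1, a stress-induced chromatin protein, went from 2.11 to 54.8 CPM (4.70), Aqp1, a water channel, from 3.89 to 73.0 CPM (4.23), and Ndufa4l2, a hypoxia-induced mitochondrial protein, from 11.5 to 138 CPM (3.59). Scrg1 (3.53), Ifi27 (3.32), Mgp (2.90), Abi3bp (2.87) and Krt17 (2.78) were among the others. The largest falls were AA465934 (-4.96), the histone gene Hist1h2ap (-4.28) and Pcp4 (-4.02). Of these 12 genes all but Abi3bp, at 0.48, were past 2-fold in the same direction in other kept cells too.

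Cell cycle genes were lower at E14.5 without passing 2-fold: none of 17 S phase genes and none of 20 G2M genes lay above 0, with medians of -0.29 and -0.44, against -0.30 and -0.33 in other kept cells. Hypoxia targets had a median of 0.59 with 16 of 17 above 0, and nuclear oxidative phosphorylation genes -0.22 with 2 of 30 above 0. Immediate-early genes stood at 0.48, and glycolysis at 0.12. Interzone markers in members, led by Sfrp2 at 408 and 967 CPM, summed to 712 CPM at E13.5 and 1494 CPM at E14.5, and their part in the rise of Barx1, Scrg1 and Krt17 was not tested.

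**Figure D2:**
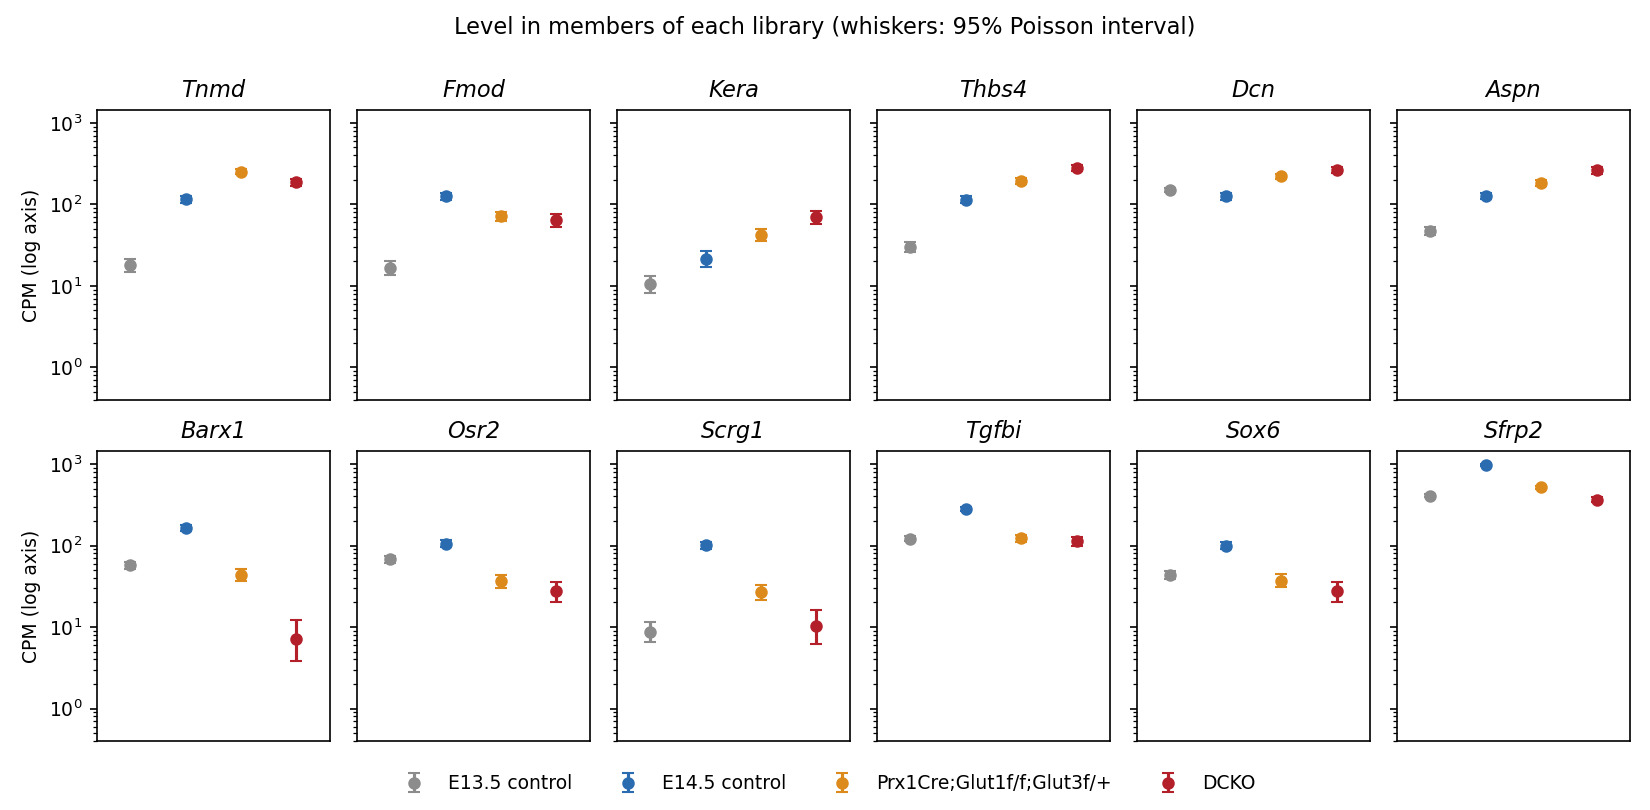
Level in members of 12 genes in each of the 4 libraries (vertical axis, CPM, log scale), with 95% Poisson intervals as whiskers. The upper genes reach their highest level in a mutant library except Fmod, and the lower genes are highest in the E14.5 control, Barx1 at 165 CPM against 7.11 CPM in DCKO.

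The second comparison sets Prx1Cre;Glut1f/f;Glut3f/+ against the E14.5 control, and asks what this genotype label goes with in these cells. Barx1, Osr2, Scrg1 and Krt17, which are higher in interzone cells than in members, were at least 2-fold lower in the mutant library, while no collagen passed 2-fold. Of 6398 genes tested 26 (0.406%) were at least 2-fold higher and 76 (1.19%) at least 2-fold lower, with a median log2 ratio of -0.08. Counts here and in the other comparisons between libraries do not leave out sex-linked, hemoglobin or rule genes. Tnmd (1.13), a rule gene on chromosome X, is among the 26. After thinning 128 were higher and 227 lower, and in other kept cells with all UMIs 13 were higher and 11 lower.

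The third comparison sets DCKO against the same E14.5 control, and asks the same for that label. Here, over all members, 4 of 7 small leucine-rich proteoglycans and Thbs4 were at least 2-fold higher, and Barx1, Pax9, Krt17 and Scrg1 were lower by 8-fold or more, while collagens and tendon transcription factors were close to the control. Of 6438 genes tested 28 (0.435%) were at least 2-fold higher and 130 (2.02%) at least 2-fold lower, with a median of -0.07. After thinning 54 were higher and 328 lower, with the control the larger group and so the one through which more genes could enter. In other kept cells with all UMIs 33 were higher and 54 lower. The E14.5 control is shared by 3 of the 4 comparisons, so its own value enters each of them.

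Counts of Slc2a1, the gene labelled as deleted, went against the labels. Slc2a1 read 26.9, 35.8, 113 and 140.0 CPM in members and 49.7, 66.0, 347 and 434 CPM in other kept cells, highest in the libraries labelled as mutants. Whether the 3' tags lie outside the floxed part was not settled, so these counts were not used to check the deletion. The log2 ratio to the control was 1.66 under the label Prx1Cre;Glut1f/f;Glut3f/+ and 1.97 under the label DCKO, and it was larger in other kept cells (2.40 and 2.72). Slc2a3 was low throughout, between 5.34 and 8.20 CPM in members.

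Among lists with more than 1 gene tested, proteoglycans had the highest median in DCKO. Kera read 10.5, 21.6, 42.1 and 69.5 CPM, with a log2 ratio to the E14.5 control of 0.97 in Prx1Cre;Glut1f/f;Glut3f/+ and 1.69 (1.27 to 2.12) in DCKO. Dcn read 151, 126, 221 and 264 CPM (0.81 and 1.06), Aspn 47.6, 127, 181 and 261 CPM (0.51 and 1.04), and Lum 93.5, 80.6, 121 and 162 CPM (0.59 and 1.01). Over all members each of these 4 genes was highest in DCKO. Fmod stood at -0.81 and -0.96, Bgn at -0.39 and -0.57, and Ogn at 0.57 and 0.44.

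The make-up of members differed between these libraries as well. Members with a Tnmd UMI were 24.7% in the E14.5 control and 36.8% in DCKO, and interzone markers in members summed to 1494 and 616 CPM. Within Tnmd-positive members Aspn read 286 and 307 CPM, Lum 173 and 164 CPM, Dcn 195 and 247 CPM, and Kera 62.2 and 123 CPM in these 2 libraries. Gdf5-positive interzone cells of the control held 0.587 CPM of Dcn and 10.9 CPM of Aspn. The part of make-up in the higher proteoglycan levels was not tested.

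Over the list of 7 proteoglycans tested, none of 7 was at least 2-fold higher in Prx1Cre;Glut1f/f;Glut3f/+, with a median of 0.57, and 4 were in DCKO, with a median of 1.01. In DCKO the same list had a median of -0.16 in Dcn-positive fibroblasts and -0.42 in other kept cells. The fibroblast value includes Dcn, on which those cells were chosen; of the genes that did not choose them, Kera stood at -0.36 in fibroblasts and 0.34 in other kept cells, Lum at -1.19 and 0.16, and Aspn at 1.25 and 0.36, the fibroblast value of Aspn being above that of members. The genes sit in clusters of related genes: Dcn (97479609 to 97518143), Lum (97565128 to 97572703) and Kera (97606879 to 97613692) lie side by side on chromosome 10 of GRCm38, and Aspn (49544443 to 49567565) and Ogn (49608046 to 49624501) on chromosome 13.

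Thbs4 was higher with them. It read 30.3, 114, 195 and 277 CPM, with log2 ratios of 0.78 and 1.29 (1.10 to 1.48) to the E14.5 control, while in fibroblasts the DCKO ratio was -0.11 and in other kept cells -0.55. Thbs4 UMIs were in 12.7%, 26.2%, 33.4% and 39.5% of members, or 7.15%, 16.2%, 23.2% and 32.1% at 3000 UMIs per cell, against 0, 1, 0 and 1 macrophage. Of 19 tendon matrix glycoproteins other than Tnmd, Thbs4 was the only gene past 2-fold higher in DCKO, and Fbn2 (-1.19), a fibrillin of embryonic microfibrils, the only one past 2-fold lower, with a median of 0.05. In Prx1Cre;Glut1f/f;Glut3f/+ none of these 19 passed 2-fold in either direction, with a median of 0.14. Leaving Tnmd out of the list was chosen after the data were seen.

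Collagens hardly moved. Of 13 tested, none was 2-fold higher or lower in either mutant library, with medians of 0.01 and -0.18 against -0.09 and -0.44 in other kept cells; Col1a1 read 457, 1505, 2038 and 1588 CPM. In the folding and crosslinking list Plod2 read 256, 118 and 99.6 CPM in the libraries of E14.5 (-1.12 and -1.36), Loxl1 was past 2-fold lower in DCKO (-1.29), and the other genes of the 21 were within 2-fold. Itga11 stood at -1.37 and -1.93.

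Barx1 was among the named falls of DCKO. It read 57.0, 165, 43.7 and 7.11 CPM in members, and was lower than the E14.5 control by log2 ratios of -1.92 (-2.20 to -1.65) and -4.54 (-5.46 to -3.76). It was seen in 99, 155, 44 and 11 members, and at 3000 UMIs per cell in 9.76%, 30.6%, 7.82% and 1.96% of them. With all UMIs the DCKO share was 4.93%, against 4.35% of macrophages there (2 of 46), too few macrophages to separate it from background. In Dcn-positive fibroblasts Barx1 was low in all libraries, at 8.65, 8.21, 9.37 and 12.7 CPM, and in Gdf5-positive interzone cells it was 343, 327, 254 and 79.7 CPM.

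Further genes had the same order. Pax9, a paired-box factor of jaw and limb mesenchyme, read 19.1, 58.5, 16.3 and 1.64 CPM, with log2 ratios of -1.84 and -5.16 (-7.44 to -3.59) to the E14.5 control. Krt17 read 7.62, 52.2 and 8.49 CPM, with 0 UMIs in DCKO. Set against the floor of 3 counts in that library, its DCKO log2 ratio is -4.99, or 31.8-fold lower at that floor. The upper limit of the counting interval, -4.68, is the weaker bound. Scrg1, a secreted cartilage-lineage peptide, read 8.75, 101, 26.7 and 10.4 CPM (-1.92 and -3.28), and Ndufa4l2 11.5, 138, 31.1 and 6.56 CPM (-2.15 and -4.40). All 4 genes were highest in the E14.5 control and lowest in DCKO among the 3 libraries of E14.5.

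Weaker falls covered related genes. Osr2, an odd-skipped factor of joints, read 67.7, 105, 36.5 and 27.3 CPM (-1.53 and -1.94), Sox6 43.6, 99.6, 37.1 and 27.3 CPM (-1.43 and -1.87), and Sulf1, a heparan sulfatase, 46.0, 219, 91.5 and 56.3 CPM (-1.26 and -1.96). Skeletal factors had medians of -0.53 and -0.34, with 3 of 15 and 3 of 17 past 2-fold lower. In signalling, Fst (-1.57 and -1.92), Nog (-1.56 and -1.50), both BMP antagonists, and Id4 (-1.14 and -1.51), a BMP target, were lower. Tgfbi, at 122, 279.9, 124 and 112 CPM, was -1.18 and -1.32, and in DCKO Ltbp2 (-1.61) and Ltbp3 (-1.03) were also past 2-fold lower.

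Interzone markers moved with these falls. Their sum in members was 1494 CPM in the E14.5 control, 769 CPM in Prx1Cre;Glut1f/f;Glut3f/+ and 616 CPM in DCKO. Cells that reached the Scx, Tnmd and Mkx sum but had more than 1 Gdf5 UMI, and were left out by the rule, numbered 137, 71, 23 and 7, and in them Barx1 read 382, 386, 277 and 183 CPM. Members with a Gdf5 UMI numbered 74, 58, 22 and 9. The part that fewer interzone-like cells have in the lower Barx1, Osr2 and Scrg1 of mutant members was not tested.

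Medians of the hypoxia, glycolysis, ATF4 and chaperone lists lay lower in members than in other kept cells of the same libraries. In Prx1Cre;Glut1f/f;Glut3f/+ none of 17 hypoxia targets lay above 0, with a median of -0.31, while in other kept cells the median was 0.21; in DCKO 3 of 18 lay above 0 (-0.31, against 0.27). Glycolysis stood at -0.27 and -0.02, against 0.07 and 0.22. ATF4 targets, genes of amino acid supply that rise under nutrient stress, stood at -0.03 and 0.21 in members and 0.34 and 0.73 in other kept cells, and Asns, which makes asparagine, read 34.2, 32.6, 30.8 and 54.2 CPM in members but 37.4, 40.1, 98.2 and 195 CPM in other kept cells. Chaperones of the unfolded protein response stood at -0.37 and 0.00 in members against 0.14 and 0.88. Dcn-positive fibroblasts, at -0.06 for ATF4 targets and -0.26 for chaperones in DCKO, also lay below other kept cells, and the difference between cell types was not tested.

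In DCKO the median over all genes tested was -0.07. Tendon-associated factors had a median of -0.11, with 1 of 21, Foxc1 (-1.20), past 2-fold; FGF genes stood at -0.13, Wnt genes at -0.32 with Sfrp2 (-1.41) and Dkk3 (-1.14) past 2-fold lower, S phase genes at 0.09 and G2M genes at -0.06. Limb position factors stood at -0.15, with Meis1 (1.46) and Tbx3 (1.03) past 2-fold higher and Hoxa11 (-1.81) lower. Of 15 genes for integrins and mechanosensing 1 was past 2-fold lower, with a median of -0.21. Nuclear oxidative phosphorylation genes stood at 0.06 and 0.01 in the mutant libraries, immediate-early genes at -0.08 and -0.18.

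**Figure D3:**
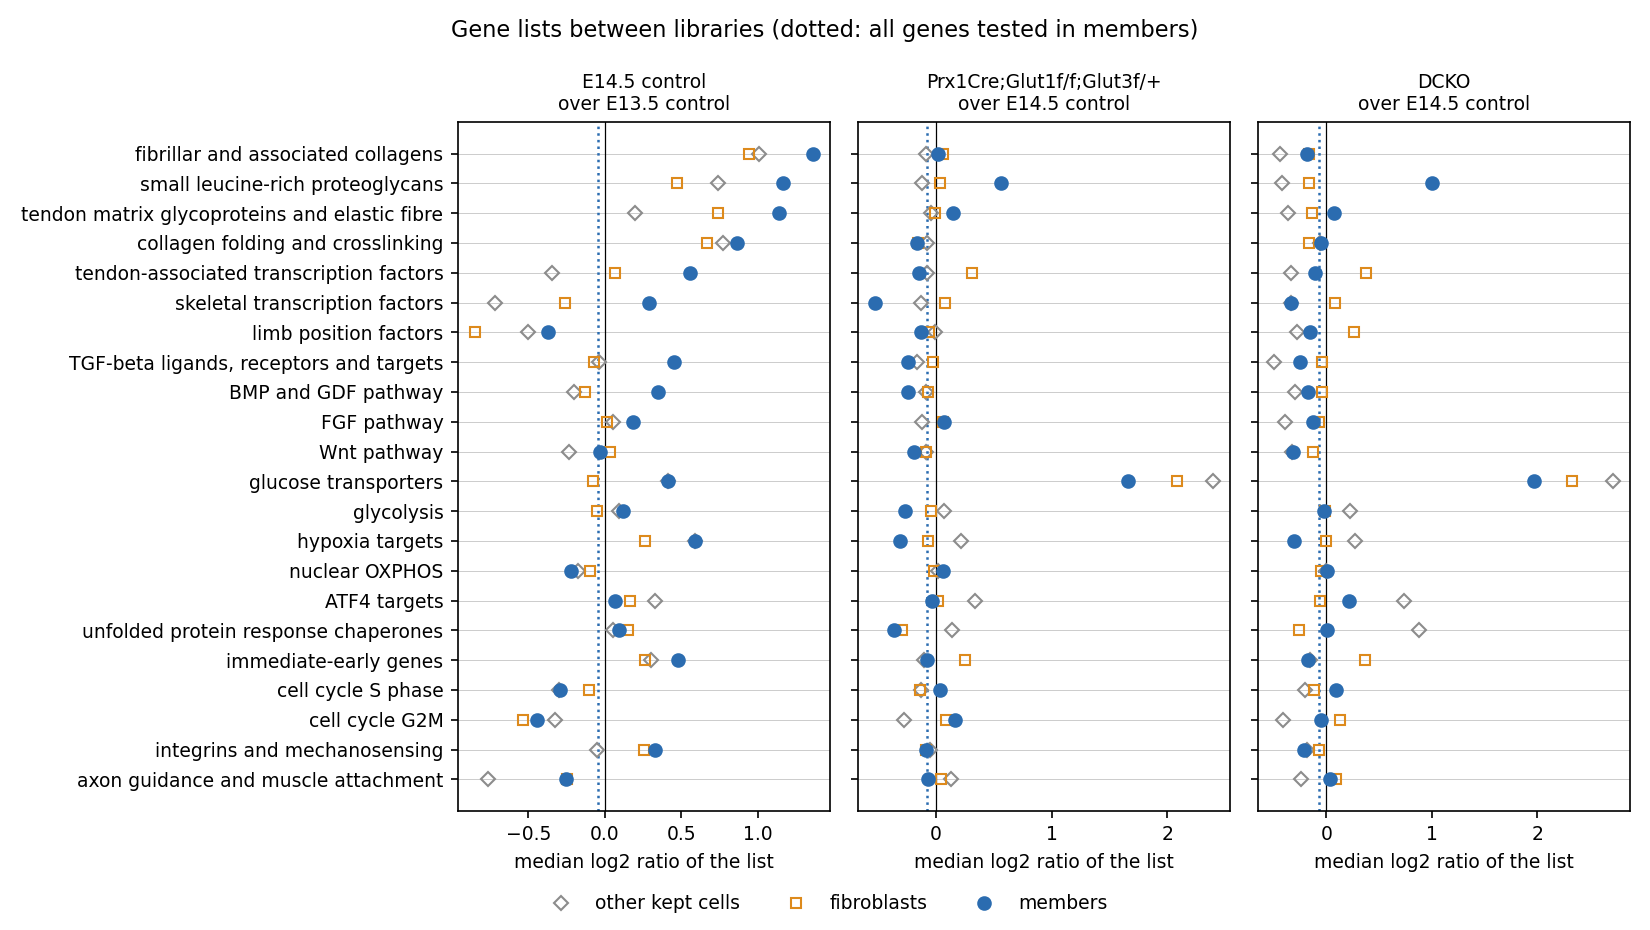
Median log2 ratio of 22 gene lists (horizontal axis) in members, Dcn-positive fibroblasts and other kept cells for 3 comparisons between libraries; the dotted line is the median over all genes tested in members. In DCKO the small leucine-rich proteoglycans stand at 1.01 in members and below 0 in the other cells, and the glucose transporter list holds 1 gene, Slc2a1.

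Among the named rises of Prx1Cre;Glut1f/f;Glut3f/+, Acta2 rests on few cells. Acta2, smooth muscle actin, read 34.8, 50.8, 354 and 15.9 CPM, but it was seen in 50, 17, 25 and 5 members, and a single cell held 50.8% of its UMIs in the E14.5 control, 21.2% in Prx1Cre;Glut1f/f;Glut3f/+ and 82.8% in DCKO. The log2 ratio to the control was 2.80, and 3.48 without the top cell of each library. Myl9 (1.41), a myosin light chain, and Spon2 (1.24) were also higher there. Apoe (-2.12) likewise had 74.0% of its control UMIs in 1 cell, and stood at -0.24 without the top cells. Leaving out the top cell was chosen after the data were seen.

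Further named rises in DCKO were Nefm (1.40), Tubb2b (1.23) and Dpysl3 (1.11), cytoskeletal genes better known from neurons. Tubb2b read 163 and 382 CPM in the E14.5 control and DCKO. Sult5a1 (1.05) and Ank2 (1.06) also passed 2-fold. Gm47283, at 239.6 and 625 CPM (1.38), was also past 2-fold higher in fibroblasts (1.02) and other kept cells (1.30). It is annotated on chromosome Y (90784738 to 90816464, GRCm38), yet it read higher in the female DCKO library than in the male control. A lack of chromosome Y would lower such a gene and not raise it. These libraries differ in sex, so the ratio of Gm47283 to the control is not given as an effect of genotype. Between the mutant libraries, both female, it was 0.98 higher in DCKO in members and 0.96 higher in other kept cells, which sex does not cover, and the source was not tested.

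The fourth comparison sets DCKO against Prx1Cre;Glut1f/f;Glut3f/+, libraries of the same sex that by label differ in the second Glut3 allele. In members 13 of 6252 genes (0.208%) were at least 2-fold higher and 32 (0.512%) at least 2-fold lower, with a median of 0.01. After thinning 44 were higher and 157 lower, with a rule sum of 5 or more 35 and 79, and in other kept cells with all UMIs 9 and 28. In members with a Tnmd UMI, a split chosen after the data were seen, 69 were higher and 134 lower, against 69 and 102 for Prx1Cre;Glut1f/f;Glut3f/+ over the E14.5 control. Barx1, at 43.7 and 7.11 CPM (-2.62), Ltbp2 (-1.46) and Zeb2 (-1.24) were lower in DCKO among the listed genes. Kera (0.72) and Aspn (0.52) were higher without passing 2-fold, and all 16 chaperones of the unfolded protein response lay above 0, with a median of 0.36 and Creld2 at 32.7 and 66.7 CPM (1.03); in other kept cells that median was 0.74.

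Nefm (1.90) and Hsph1 (1.09), a heat shock protein, were among the named rises. Acta2 (-4.48), Tagln (-1.54), Spon2 (-1.08) and Nrtn (-1.69) were among the falls, and 82.8% of the DCKO Acta2 UMIs were in 1 cell. AI506816 was 83.5, 7.86 and 77.7 CPM in the 3 libraries of E14.5, low in Prx1Cre;Glut1f/f;Glut3f/+ alone, as it was in fibroblasts, interzone cells and other kept cells. Proteoglycans had a median of 0.26, with 4 of 7 above 0 and none past 2-fold, and G2M genes -0.23, with 2 of 20 above 0.

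Within members, cells with and without a Tnmd UMI differed in matrix, contractile and interzone genes. Members with a Tnmd UMI numbered 56, 98, 174 and 82 and had a median of 7826, 8476.5, 7920 and 7306 UMIs; those without numbered 606, 299, 200 and 141, at 7739.5, 7000, 6950 and 6392 UMIs. The gene most raised in Tnmd-positive members was the mural marker Acta2 (mean log2 ratio 3.99, 2.33 to 6.40 over the libraries), with 1112 of its UMIs in Tnmd-positive and 13 in Tnmd-negative members of Prx1Cre;Glut1f/f;Glut3f/+, and Tagln (1.47) was higher in 3 of the 4 libraries. Tnmd-positive members held more Kera, Spon2 and Abi3bp in all 4 libraries, with mean log2 ratios of 1.92, 1.89 and 1.29, and more Aspn (1.05) and Thbs2 (0.99). At E13.5 Spon2 rested on 1 UMI in Tnmd-positive and 4 in Tnmd-negative members, and Kera on 8 and 57. Tnmd-negative members held more Scrg1 (-2.51), Osr2 (-1.77) and Sfrp2 (-1.12) in all 4 libraries.

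The split uses a gene of the rule and serves as description alone. Barx1 in Tnmd-positive members was at most 7.003 CPM in any library, and in Tnmd-negative members it was 62.5, 226, 79.4 and 8.31 CPM, where the DCKO values rest on 4 and 9 UMIs. Krt17 had 184 of 184 control UMIs at E14.5 in Tnmd-negative members. Kera was 13.9, 62.2, 67.5 and 123 CPM in Tnmd-positive and 10.2, 6.26, 17.4 and 32.3 CPM in Tnmd-negative members. Aspn was 88.7, 286, 222 and 307 CPM in Tnmd-positive and 43.4, 67.2, 142 and 229 CPM in Tnmd-negative members, and Lum 74.8, 173, 136 and 164 CPM and 95.4, 45.7, 106 and 161 CPM.

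Thbs4 was higher in Tnmd-positive members of all libraries but Prx1Cre;Glut1f/f;Glut3f/+, and Dcn in the E14.5 control alone. Thbs4 read 52.2, 188, 187 and 360 CPM in Tnmd-positive and 28.1, 85.6, 202 and 221 CPM in Tnmd-negative members. Dcn read 71.3, 195, 210.1 and 247 CPM and 159, 100.5, 232 and 276 CPM. In Tnmd-positive members of the 3 libraries of E14.5, Dcn lay between 195 and 247 CPM, a narrower range than in Tnmd-negative members.

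**Figure D4:**
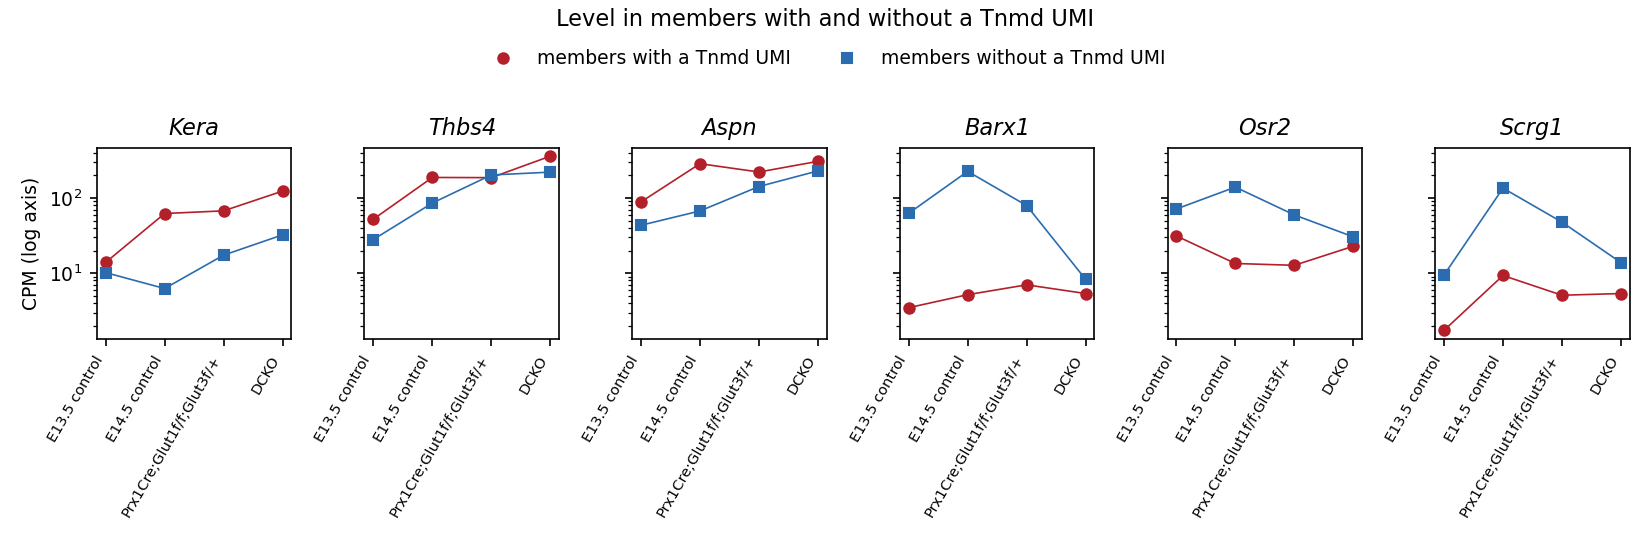
Level of 6 genes (vertical axis, CPM, log scale) in members with and without a Tnmd UMI, in each of the 4 libraries. Barx1 is at most 7.003 CPM in Tnmd-positive members and runs from 226 to 8.31 CPM in Tnmd-negative members at E14.5.

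A second split followed Sox9. Members with a Sox9 UMI were 46.8%, 56.7%, 38.5% and 42.6%, and those with both Sox9 and Tnmd numbered 19, 56, 52 and 35. Sox9-positive members were deeper, at a median of 9278, 8325, 7973 and 7467 UMIs against 6848, 6164, 6864.5 and 6528.5 UMIs. They held more Cnmd (mean log2 ratio 2.25), Matn4 (2.13), Col9a1 (2.09), Col2a1 (1.65) and Sox5 (1.66), all cartilage genes, and less Chodl (-1.44), Kera (-1.35), Thbs4 (-1.25) and Dcn (-1.07), in all 4 libraries. Col2a1 read 349, 421, 436 and 444 CPM in Sox9-positive and 117, 139, 112 and 159 CPM in Sox9-negative members. In Matn1-positive chondrocytes it read 4222 to 6758 CPM. The rule kept out cells with a Matn1 UMI, while these chondrocytes were chosen on Matn1, so the gap describes the choice of cells. The part of the Matn1 condition in the gap was not tested.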

How the data were processed

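Hindlimb knee cells of 4 libraries were measured with the Single Cell 3' kit v3.1. The deposited matrices hold raw UMI counts per gene and cell, made by the authors with Cell Ranger (6.1.2 per the file headers) on mm10; the processing notes also name Seurat 3. Of 32285 gene IDs, 32158 (99.6%) are in GENCODE M21. Cells were filtered as stated above, doublets were kept, and the UMIs of all cells in a group were added up and scaled to CPM. Ratios are log2 ratios of these sums with exact conditional binomial intervals, and levels have Poisson intervals. In ratios between libraries a group at 0 was set to 3 counts as a bound. List medians and mean ratios over the 4 libraries used a prior count of 0.5. With genes at 0 set to the bound, the DCKO median of the Wnt list was -0.33 in place of -0.32, and the proteoglycan median stayed at 1.01.

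Genes tested had at least 20 CPM and 20 UMIs in either group. Counts of genes past 2-fold between libraries kept sex-linked, hemoglobin and rule genes. Named genes were the 12 largest rises and falls between libraries among genes with at least 50 CPM, without Xist, Tsix, 4 Y-linked genes and hemoglobin genes, the 15 highest and 10 lowest against other kept cells among genes with at least 100 CPM, and genes of the 22 lists. The members and lists were chosen with earlier results of these data known. No test was made, since each group has 1 library. Alternatives changed the rule, cell filter, scaling, depth and gene filter. The computation used Python 3.11.15, numpy 2.4.6, pandas 2.3.3, scipy 1.17.1 and matplotlib 3.10.9, and was tested on simulated data with known ratios.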

Additional observations from a re-analysis of the deposited data

Results flagged for a closer look

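Nupr1, a stress-induced gene, moved in opposite directions in members and in other kept cells of the same libraries. In members it read 2.11, 54.8, 22.3 and 19.7 CPM, and in other kept cells 4.42, 20.5, 63.8 and 151 CPM. Against the E14.5 control the log2 ratio of Prx1Cre;Glut1f/f;Glut3f/+ was -1.30 in members and 1.64 in other kept cells. For DCKO it was -1.48 in members and 2.88 in other kept cells. The difference between the cell groups was not tested.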

How the results depend on the processing

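Shares of members, in the order of libraries used above, moved with the UMI threshold and with thinning. They were 9.96%, 6.71%, 5.32% and 3.35% with a sum of 2 or more, 2.15%, 1.89%, 1.85% and 1.19% with 5 or more, and 1.94%, 2.03%, 1.82% and 1.16% after thinning to 3000 UMIs. Without the Matn1 condition they were 5.90%, 4.99%, 3.97% and 2.45%. With Gdf5 of 0 the E13.5 share was 4.72% and that of the E14.5 control 3.64%. The E13.5 share was 5.89% with 1000 to 6000 genes and at most 5% mitochondrial UMIs, 5.76% over mesenchymal cells alone, and 4.81% without members that held endothelial, macrophage or muscle UMIs. Thresholds change shares by construction; DCKO was lowest under each of these settings.

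Counts of genes at least 2-fold higher or lower moved with the gene filter, as fewer or more genes with low counts were tested. With 50 CPM required they were 131 and 42 for E14.5 over E13.5, 12 and 28 for Prx1Cre;Glut1f/f;Glut3f/+ over control, 14 and 47 for DCKO over control, and 5 and 10 for DCKO over Prx1Cre;Glut1f/f;Glut3f/+. With 10 CPM they were 388 and 160, 65 and 160, 62 and 277, and 37 and 110. After thinning, 261 genes were lower at E14.5, and the other pairs were 128 and 227, 54 and 328, and 44 and 157. With a sum of 2 or more, 47 genes were lower in Prx1Cre;Glut1f/f;Glut3f/+. With 5 or more, 136 were lower at E14.5, 134 in Prx1Cre;Glut1f/f;Glut3f/+ and 197 in DCKO, and DCKO over Prx1Cre;Glut1f/f;Glut3f/+ gave 35 and 79. Members were fewer after thinning and with a sum of 5, more with a sum of 2, and the cause of these shifts was not tested.

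The following were chosen after seeing the data. In members without a Tnmd UMI the counts were 41 and 130 for Prx1Cre;Glut1f/f;Glut3f/+ over control, 63 and 229 for DCKO over control, and 56 and 83 for DCKO over Prx1Cre;Glut1f/f;Glut3f/+. In members with one they were 406 and 182 for E14.5 over E13.5, 69 higher in Prx1Cre;Glut1f/f;Glut3f/+ and 53 in DCKO, and 69 and 134 for DCKO over Prx1Cre;Glut1f/f;Glut3f/+. Without the member that held most UMIs of a gene, Acta2 stood at -0.10 for E14.5 over E13.5, 3.48 and -3.19 for the mutants over control, and -6.67 between the mutants, and Apoe at -0.24 for Prx1Cre;Glut1f/f;Glut3f/+ over control.

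Lists without Tnmd or Gdf5 were also added after seeing the data. Of 712 list medians recomputed, 672 stayed close to the reported value (less than 0.25 apart), 40 moved and 0 reversed. Of 1104 named-gene ratios 886 stayed within their counting interval, 216 moved and 2 reversed, both after thinning: Apoe in Prx1Cre;Glut1f/f;Glut3f/+ over control, at 0.27, and Acta2 in DCKO over control, at 3.96. A single cell held most UMIs of Apoe in the E14.5 control and of Acta2 there and in DCKO, and the cause of the reversals was not tested. Of 108 ratios of members over other cells 99 stayed within the range of the 4 libraries. No paired analysis was possible because no library was paired with another. Depth limits members themselves, since a cell with few UMIs rarely reaches a sum of 3.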
